A study of Mus musculus with 20 samples.

Results

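Mouse flank tissue that had received Ad-VEGF-A164 was compared between day 20 and day 5, across all genes measured. Ad-VEGF-A164 is an adenovirus that carries the gene of vascular endothelial growth factor A in its A164 form into the cells it infects. The comparison used 9 of the 20 arrays of the series, 5 of day 20 (A to E, the letters of their titles) and 4 of day 5 (B to E), all of tissue given the vector. A further 5 arrays of day 0 control flank and 5 of day 60 served to estimate the spread between arrays and as reference levels. The remaining array carries the title of day 5 A but a source name of day 0 control and was left out; its Vegfa signal was 11111.1, beside 66.5 to 467 on the control arrays. The vector reaches whichever cells take it up, its producing cells are not named, no label names an empty vector, and strain, age, dose and route are not given in the sources here. Both groups carry the vector, and by the labels they differ in the time since it was given. Whether they were matched in batch and in the tissue taken is not given. No label says that the arrays are separate animals, so the p-values reflect the spread of these samples alone, which may be technical, and the number of arrays limits the precision.

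VEGF-A is the main growth signal for blood vessels: it acts through the receptor VEGFR2 (Kdr) on endothelial cells, makes vessels leak and draws in monocytes, which carry the receptor VEGFR1 (Flt1). In skin and muscle, strong VEGF-A expression first gives enlarged, thin-walled and leaky vessels among a fibrin-rich provisional matrix, and some of these later acquire a coat of mural cells, that is pericytes and smooth muscle cells. Mural cells are drawn to vessels by PDGF-B acting on Pdgfrb, and connective tissue matures when fibroblasts lay down collagen fibrils whose assembly is steered by small leucine-rich proteoglycans such as decorin, lumican and fibromodulin.

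Vegfa, the gene the vector carries, had signals that overlapped between the days on its brighter probe set but not on the second. Vegfa signals on its brighter probe set were 9410.0, 8387, 3927 and 5232 on the day 5 arrays B to E and 9141, 7451, 7128, 9046 and 13514 on the day 20 arrays A to E. The lowest values were on day 5 D and E and the highest on day 20 E, with a log2 change (day 20 minus day 5) of 0.50 ± 0.37, adjusted p = 0.491 by limma, whose Benjamini-Hochberg adjusted p over 13595 tested genes is used throughout. The control mean on this probe set was 196 ± 156. The second Vegfa probe set read 640 to 797 on day 5 and 851 to 1177 on day 20, without overlap, and did not pass among all probe sets (0.46 ± 0.20, adjusted p = 0.218), with a control mean of 2022 ± 479 (SD, n = 5). Vector and tissue transcripts cannot be told apart here. Kdr (0.18, adjusted p = 0.746), Flt1 (-0.25, 0.65) and Pgf, a ligand of Flt1 (0.15, 0.874), did not pass either, and Pgf had no settled sign (-0.04 without day 20 B and -0.01 without day 5 B). Changes are on the scale of log2(signal + 100), so the change of dim genes is understated, and errors after ± are SE of the fit (n = 4 and 5) unless marked as SD. A gene was called changed at an adjusted p under 0.05. In whole flank tissue, fewer cells of a type and less RNA per cell cannot be told apart.

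Across the array, 415 genes were higher on day 20, 3.05% of those tested, and 306 were lower, 2.25%. Of these, 160 and 90 changed at least 2-fold. The arrays of both days did not overlap in 374 of the 415 and 281 of the 306. Called genes were selected for their difference, and the share of all tested genes without overlap is not given here. The absence of overlap therefore describes single genes and gives their calls no further support. All tested genes together had a median log2 change of 0.01, with 25% below -0.20 and 25% above 0.22. In a fit of the 9 arrays alone 582 genes were higher and 493 lower. Without 1 array the counts were 239 to 360 and 179 to 307, and they fell by over 1.5 times without day 5 B, C or D (274, 239 and 263 higher) and without day 20 A or D or day 5 B, C, D or E (192, 194, 195, 179, 186 and 183 lower). Counted as a control, the array with conflicting labels left 225 and 125, and as a day 5 array it gave 576 and 452. As a control it ended the calls of 60 of the 137 called genes named here, with unchanged log2 changes (adjusted p = 0.0502 to 0.452 over these calls). Cdc20, Ccl2, Cd68, Tnc and Mmp13 were among them. The array then entered the spread that all groups share, not the means of day 5 and day 20. Its signals of these genes, in that order, were 13823.5, 7449, 3844, 20946 and 3127. Control means were 2908, 181, 712, 1871 and 102, and day 5 means 12723, 3815, 4108, 20924 and 1834. Which of its labels is right was not tested. The median signal of an array was 420 to 486 on day 5 and 452 to 465 on day 20. The 3' to 5' ratio of Actb, which grows as RNA breaks down, was 2.95 to 7.31 and 2.60 to 7.56.

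**Figure D1:**
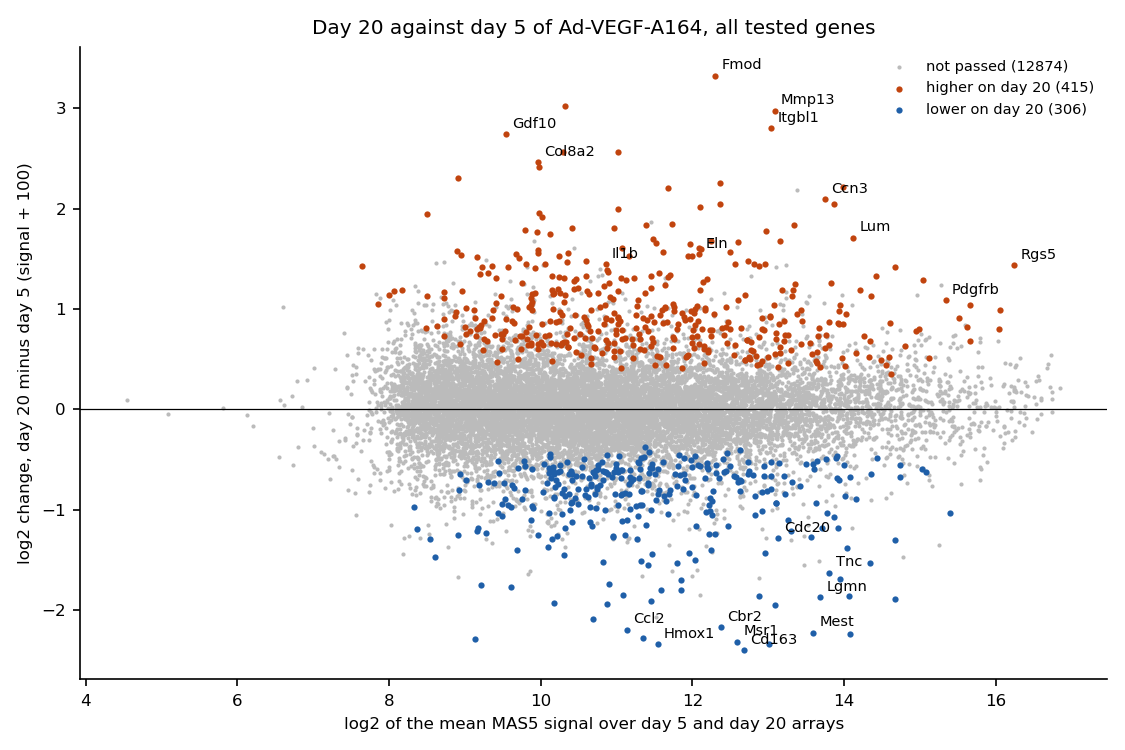
Log2 change (day 20 minus day 5) of each of 13595 tested genes, 1 point each, against the log2 of its mean MAS5 signal over the 9 arrays. The 415 orange points above 0 and the 306 blue points below it passed the test. Fmod stands highest at 3.33 and Cd163 lowest at -2.40.

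Some genes of cell division fell between day 5 and day 20, Cdc20 and Kif22 among them. Of 53 tested genes of the mitotic spindle and kinetochore, the machinery that pulls chromosomes apart, 17 were lower on day 20 (32.1%, beside 2.25% of all tested genes), none higher and 36 did not pass, and 52 of the 53 had a log2 change below 0, with a median of -0.65. The mean level of the list was 11.584 to 11.808 on the day 5 arrays and 10.997 to 11.106 on the day 20 arrays (mean log2 of signal + 100), so the days did not overlap, and the control arrays lay lower, at 9.57 to 10.56. Cdc20, which activates the anaphase-promoting complex, had signals of 13922, 11068, 12788 and 13113 on day 5 and 4888, 4863, 6535, 5202 and 4506 on day 20. Every day 20 array lay below every day 5 array (-1.28 ± 0.21, adjusted p = 0.00137). Zwilch, a kinetochore protein, had signals of 3449.6, 3072, 3492 and 2528 on day 5 and 1020.0, 1578, 1269, 955 and 1534 on day 20, again with a wide gap between the days (-1.25 ± 0.25, adjusted p = 0.00574). Kif22, a motor protein on chromosome arms, was measured at 26293, 22463, 24029 and 21874 on day 5 and 12679, 14311, 12463, 11759 and 12342 on day 20 (-0.89 ± 0.16, adjusted p = 0.00366). Other members that fell were Nek2, a kinase of the centrosome (-0.93), Ube2c, the ubiquitin-conjugating partner of the anaphase-promoting complex (-0.99), the mitotic kinase Cdk1 (-0.92), the kinetochore motor Cenpe (-0.85), the survival and spindle gene Birc5 (-0.68) and Cdca8, its partner in the chromosomal passenger complex (-0.93). Calls ended for Cdca8 without day 20 A, B, D or E or day 5 B, C, D or E (adjusted p = 0.0505 to 0.104) and for Cdk1 without day 20 A or D or day 5 B or D (adjusted p = 0.0538 to 0.0645). The call of Nek2 ended with the gene's probe sets averaged (adjusted p = 0.198). The proliferation marker Mki67 had signals of 11140.1, 11861, 15457 and 15241 on day 5 and 6748, 7190.0, 8712, 7141 and 9187 on day 20 and missed the threshold (-0.77 ± 0.23, adjusted p = 0.0565), although the days did not overlap. It passed in the fit of the 9 arrays alone (adjusted p = 0.00874).

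Some genes of DNA replication were lower as well. Of 44 tested replication genes 12 were lower (27.3%, beside 2.25% of all tested genes), none higher and 32 did not pass, with a median of -0.42 and 40 values below 0. Uhrf1, which carries DNA methylation through replication, was measured at 4114, 4463, 4119 and 4175 on day 5 and 1943, 2415, 2582, 2513 and 1643 on day 20 (-0.92 ± 0.18, adjusted p = 0.00529). The day 5 arrays were nearly equal and all above the day 20 arrays. Gmnn, an inhibitor of the licensing of replication origins, fell (-0.73), as did the origin licensing gene Cdc6 (-0.76). The subunits Gins1 (-0.90) and Mcm3 (-0.82) of the replicative helicase fell as well, and so did Prim1, which makes the primers of DNA synthesis (-0.80). Calls ended for Cdc6 without day 5 B (adjusted p = 0.0684), for Mcm3 without day 5 C, D or E (adjusted p = 0.0514 to 0.0529) and for Prim1 without day 20 D or day 5 B, C or D (adjusted p = 0.0519 to 0.0747). The calls of Mcm3 and Prim1 ended with each gene's probe sets averaged (adjusted p = 0.056 and 0.0563). Pcna, the sliding clamp, did not pass (-0.31 ± 0.22, adjusted p = 0.458). The fit of the 9 arrays alone called 40 mitotic genes, and leaving out 1 array gave 8 to 13, with 9, 8, 8, 9, 8 and 10 without day 20 A and D and day 5 B, C, D and E. For replication the counts with 1 array left out were 4 to 10, with 7, 7, 5, 4, 6 and 6 without day 20 A and D and day 5 B, C, D and E, and with the array of conflicting labels as a control 1 mitotic and 2 replication genes were called.

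Each of 2 motifs was frequent in promoters of mitotic genes, and windows with both were not counted. The stretches just before the start of 4 genes that fell are shown as examples that hold both. Kif11 and Espl1, which also fell, held both there too and are not shown. The CHR (letters TTTGAA) and the CCAAT box are known elements of promoters switched on late in the cell cycle, the CCAAT box as the binding site of NF-Y. Windows of 300 bases (250 before to 50 after the start) were taken from RefSeq, build GRCm38.p6, and matched by symbol for 45 of the 56 genes of the mitotic list. CHR letters on either strand were found in 30 of the 45 windows, 66.7%, against 18.1% of 27025 genes' windows of the same length. CCAAT letters were found in 34, or 75.6%, against 37.9%. Of the 16 called genes with a window, 11 held CHR letters and 12 held CCAAT letters. The sequences are the 120 bases before the start, 5′ to 3′ along the gene's strand, with both motifs in capitals on either strand (TTTGAA or TTCAAA, and CCAAT or ATTGG). They lie at chr4:118437344-118437463 (minus strand) for Cdc20, at chr2:164769809-164769928 (plus strand) for Ube2c, at chr10:69352913-69353032 (minus strand) for Cdk1 and at chr7:127042421-127042540 (minus strand) for Kif22.
Cdc20: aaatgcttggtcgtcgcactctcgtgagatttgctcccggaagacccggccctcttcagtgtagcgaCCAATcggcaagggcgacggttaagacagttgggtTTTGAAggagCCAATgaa
Ube2c: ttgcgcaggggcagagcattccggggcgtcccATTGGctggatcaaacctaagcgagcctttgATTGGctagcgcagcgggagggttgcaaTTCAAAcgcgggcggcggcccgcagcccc
Cdk1: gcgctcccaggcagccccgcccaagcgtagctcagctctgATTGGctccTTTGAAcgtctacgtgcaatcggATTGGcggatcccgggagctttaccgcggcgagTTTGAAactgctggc
Kif22: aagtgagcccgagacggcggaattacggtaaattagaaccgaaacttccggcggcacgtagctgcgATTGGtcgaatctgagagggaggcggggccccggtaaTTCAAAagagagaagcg
In Cdc20 the CHR letters begin 18 bases before the start and CCAAT letters 53 and 8. In Ube2c they begin 29 bases before it, with CCAAT letters at 88 and 57. Cdk1 holds both motifs in 2 copies, with CHR letters at 71 and 15 bases and CCAAT letters at 80 and 48 bases before the start. In Kif22 the distances are 17 and 54 bases. In the replication list E2F letters (TTTGGCGC or TTTCCCGC) were found in 10 of 38 windows, 26.3%, against 1.63% of all, and in 1 of the 45 mitotic windows, whereas CHR letters were in 5 of the 38, 13.2%. Of the 10 called replication genes with a window 4 held E2F letters and none CHR letters. Motif counts describe the letters in these windows and do not show that a factor is bound there.

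**Figure D2:**
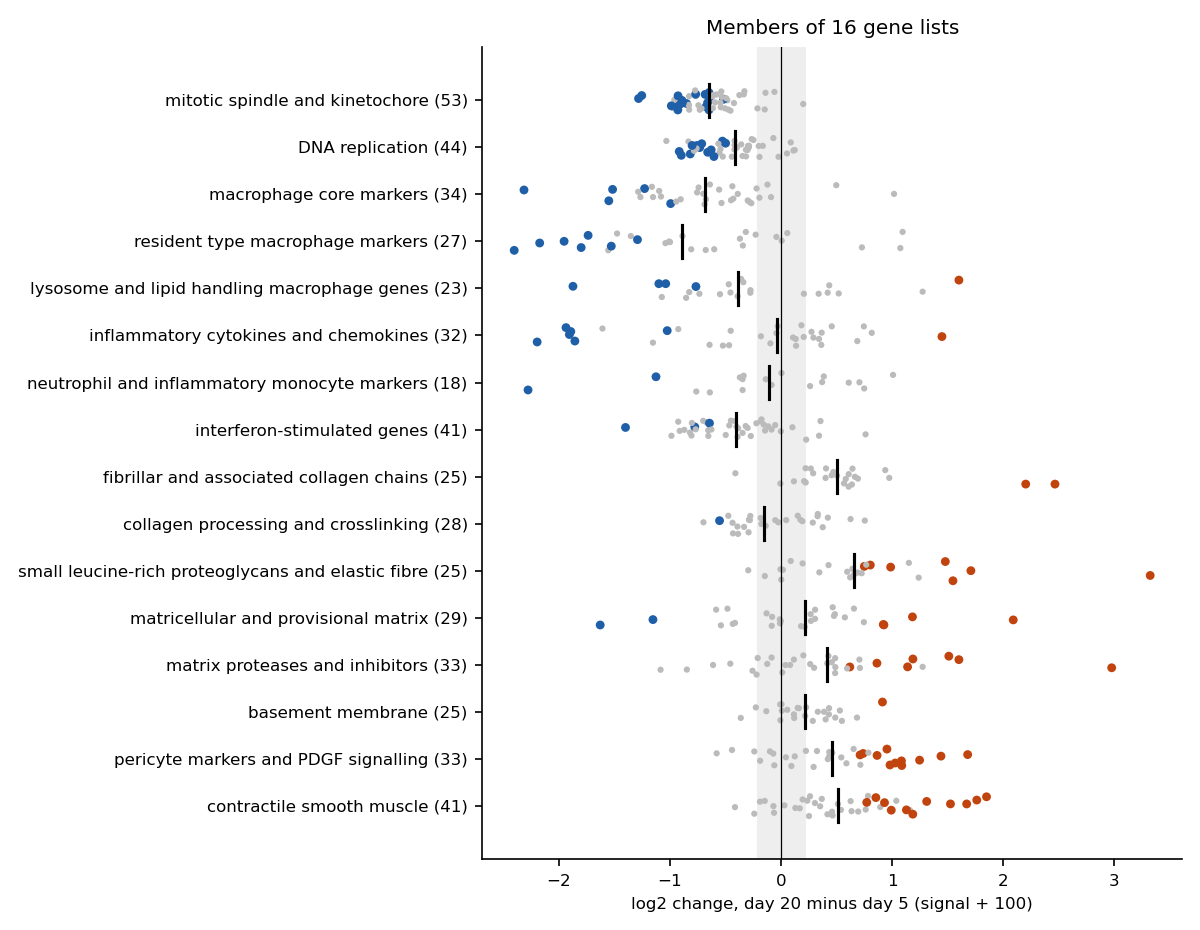
Log2 change (day 20 minus day 5) of the tested members of 16 gene lists, 1 point a gene, with the number tested in parentheses. Blue points were lower and orange points higher at an adjusted p under 0.05, black bars are list medians, and the grey band runs from -0.20 to 0.22, which holds the middle of all tested genes. Mitotic genes lie left of 0 with 1 exception, and the pericyte and contractile lists hold 11 orange points each and no blue one.

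Some macrophage genes fell, with Cd163, Msr1 and Cbr2 among the largest falls. Of 34 tested core macrophage markers 5 were lower (14.7%, beside 2.25% of all tested genes), none higher and 29 did not pass, with a median of -0.68 and 32 values below 0. Msr1, a scavenger receptor for modified lipoproteins, was measured at 15197, 8963, 7408 and 9483 on day 5 and 1435, 3188, 2436, 2065 and 1086 on day 20. All 5 day 20 arrays lay far below day 5, with A and E lowest (-2.31 ± 0.38, adjusted p = 0.00145). Cd68, a lysosomal protein of macrophages, had signals of 5932, 3219, 3545 and 3735 on day 5 and 1007, 1845, 1655, 1394 and 843 on day 20 (-1.55 ± 0.33, adjusted p = 0.00837). Fcgr1, the high-affinity receptor for IgG, fell (-1.52), as did Aif1, a calcium-binding protein of macrophages (-0.99). Adgre1, which encodes the F4/80 antigen, did not pass (-0.69 ± 0.23, adjusted p = 0.0882). The Aif1 call ended without day 20 A, C, D or E or day 5 B, C, D or E (adjusted p = 0.0504 to 0.128). The call of Aif1 ended with the gene's probe sets averaged (adjusted p = 0.0573). The list's mean level was 12.26 to 12.83 on day 5 and 11.30 to 12.49 on day 20, where B and C lay within the range of day 5 and A and E well below it.

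Of 27 markers of resident type macrophages 7 were lower (25.9%, beside 2.25% of all tested genes), none higher and 20 did not pass, with a median of -0.89. The list's mean level was 11.48 to 12.52 in control, 12.42 to 12.91 on day 5 and 11.53 to 12.20 on day 20. Cd163, the scavenger receptor for haemoglobin bound to haptoglobin, was measured at 17745, 7256, 10492 and 9132 on day 5 and 1703, 2163, 1349.8, 2283 and 2255 on day 20. Day 5 array B stood above the others, and the lowest day 5 array still lay more than 3-fold above the highest of day 20 (-2.40 ± 0.53, adjusted p = 0.0117). The control mean was 6778 ± 3632 (SD, n = 5), above every day 20 signal. Cbr2, a carbonyl reductase, had signals of 9762, 7437, 9992 and 7907 on day 5 and 1822, 2369.5, 1827, 1869 and 1481 on day 20 (-2.17 ± 0.36, adjusted p = 0.00145), and Folr2, a folate receptor of these cells, fell by 1.80. The others were Vsig4, a receptor for complement fragments (-1.74), the lectin Fcna (-1.29), the hyaluronan receptor Lyve1, which lymphatic vessels also carry (-1.95), and F13a1, the A chain of clotting factor XIII (-1.53). Of 23 lysosomal and lipid-handling genes 4 were lower (17.4%), 1 higher (4.35%, beside 3.05% of all tested genes) and 18 did not pass. Lgmn, a lysosomal protease, was measured at 19010.3, 15132, 23044 and 25366 on day 5 and 3872, 8259.6, 6499, 4022 and 5775 on day 20 (-1.87 ± 0.28, adjusted p = 0.000544). The cathepsins Ctsb (-1.04) and Ctsd (-0.77) and the lysosomal lipase Lipa (-1.10) were the others. The member that rose was Ctsk (1.60 ± 0.27, adjusted p = 0.00181), a collagen-degrading cathepsin that connective tissue cells also make. Calls ended for Lyve1 without day 20 A or E or day 5 B or D (adjusted p = 0.0568 to 0.0895), for Vsig4 without day 5 B (adjusted p = 0.052), for Fcna without day 5 B (adjusted p = 0.064), for F13a1 without day 20 A, C, D or E or day 5 B, C, D or E (adjusted p = 0.0703 to 0.103), for Lipa without day 20 A or D or day 5 B, C or E (adjusted p = 0.052 to 0.0721) and for Ctsd without day 5 B (adjusted p = 0.0626). The call of F13a1 ended with the gene's probe sets averaged (adjusted p = 0.0558). Without day 5 B and without day 5 C 3 core markers each were called, and without day 5 B 3 resident type and 2 lysosomal genes. With the array of conflicting labels as a control 2 core and 4 resident type markers were.

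Some chemokines that attract monocytes fell, while Il1b rose. Of 32 tested cytokines and chemokines 6 were lower (18.8%, beside 2.25% of all tested genes), 1 higher (3.13%, beside 3.05%) and 25 did not pass. The median was -0.03, near that of all genes, with 15 values above 0 and 17 below. Ccl2, the main ligand of the monocyte receptor Ccr2, was measured at 7321, 3286, 2602 and 2052 on day 5 and 622, 1255, 481, 616 and 521 on day 20. The highest day 20 array (B) lay below the lowest of day 5 (-2.19 ± 0.31, adjusted p = 0.000417), and the control mean was 181 ± 76.7 (SD, n = 5). Ccl9 had signals of 34298, 22302, 27613 and 22491 on day 5 and 5738, 11717, 6993, 7914 and 5132 on day 20 (-1.86 ± 0.36, adjusted p = 0.00471). Ccl7 (-1.94) and Ccl12 (-1.90), which act on the same receptor as Ccl2, Ccl6 (-1.89) and the eosinophil attractant Ccl11 (-1.02) were lower too. Il1b, interleukin 1 beta, an inflammatory cytokine of myeloid cells, went the other way, with signals of 1106, 903, 677 and 770.0 on day 5 and 2094, 5747, 3313, 1569 and 1521 on day 20 (1.45 ± 0.30, adjusted p = 0.00682). Its highest values were on day 20 arrays B and C, which also had the highest core macrophage levels of that day. Of 18 neutrophil and inflammatory monocyte markers 2 were lower (11.1%, beside 2.25% of all tested genes) and 16 did not pass. The 2 were Hp and Wfdc21 (-1.12 ± 0.24, adjusted p = 0.00779). The control mean of Wfdc21, 2999 ± 527 (SD, n = 5), lay above its signals on both days. Calls ended for Ccl7 without day 5 B (adjusted p = 0.0676), for Ccl12 without day 20 A, D or E or day 5 B or C (adjusted p = 0.0622 to 0.0942), for Ccl6 without day 20 E or day 5 B (adjusted p = 0.0526 to 0.0802) and for Ccl11 without day 20 A, B, C, D or E or day 5 B, C, D or E (adjusted p = 0.0527 to 0.14). The call of Ccl11 ended with the gene's probe sets averaged (adjusted p = 0.0576). The count of 6 was 2 without day 5 B and 3 without day 20 E, and 1 with the array of conflicting labels as a control.

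A few genes of haem, iron and red cells fell, with Hmox1 and Hp among the largest falls. Of 12 tested haem, iron and red cell genes 4 were lower (33.3%, beside 2.25% of all tested genes), none higher and 8 did not pass, with a median of -0.38. Hmox1, the inducible enzyme that opens the haem ring, was measured at 7098, 4234, 3739 and 4935 on day 5 and 824, 1079.9, 1475, 1036 and 358 on day 20. Day 20 lay well below day 5 on every array (-2.34 ± 0.29, adjusted p = 0.000121), and the control mean was 547 ± 135 (SD, n = 5). Hp encodes haptoglobin, which binds free haemoglobin, and had signals of 2139, 4425, 6943 and 4179 on day 5 and 648, 869, 1309.8, 455 and 743 on day 20 (-2.28 ± 0.38, adjusted p = 0.00145). Its control mean was 3529 ± 664 (SD, n = 5), above every day 20 signal. Blvrb, a biliverdin reductase, had signals of 1884, 1894, 1727 and 1708 on day 5 and 574, 1025, 1108, 946 and 706 on day 20 (adjusted p = 0.00756). Its control mean was 814 ± 187 (SD, n = 5), within the day 20 range. Cd163, described above, takes up the complex of haemoglobin and haptoglobin. Each of the 4 kept its call with any 1 array left out. The level of the list was 12.27 to 12.63 on day 5 and 11.46 to 11.77 on day 20, and the control arrays lay at 11.43 to 11.78. Resident type macrophage markers, described above, fell in part as well (7 of 27, Cd163 being in both lists), and their part in the fall was not tested.

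A few interferon-stimulated and class I genes were lower. Of 41 interferon-stimulated genes 3 were lower (7.32%, beside 2.25% of all tested genes), none higher and 38 did not pass, while 36 values lay below 0, with a median of -0.40. Oas1a, an antiviral sensor of double-stranded RNA, was measured at 7101, 5364, 8058 and 7791 on day 5 and 1539.7, 3248, 3131, 2675 and 2761 on day 20 (-1.40 ± 0.27, adjusted p = 0.0044). Bst2, which tethers budding viruses, and the immunoproteasome subunit Psmb8 fell (-0.78 and -0.64). Isg15 had no probe set of its own here. The days did not overlap in the list's mean level (11.56 to 11.75 on day 5 and 11.18 to 11.40 on day 20), and the fit of the 9 arrays alone called 14 members. Oas1a is shown with the 120 bases before its start, at chr5:120907526-120907645 (minus strand), because they hold letters of the interferon response element, GAAANNGAA, on the gene's strand in 2 overlapping copies, in capitals.
Oas1a: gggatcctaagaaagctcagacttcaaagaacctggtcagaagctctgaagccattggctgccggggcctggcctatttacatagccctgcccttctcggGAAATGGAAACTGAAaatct
The copies begin 20 and 14 bases before the start. Windows of 24 of 38 genes of the list held such letters on either strand, 63.2%, against 8.57% of all genes, and those of 2 of the 3 called genes. H2-D1, a class I molecule that presents peptides to CD8 T cells, had signals of 19301, 20687, 18136 and 16139.6 on day 5 and 8226, 9346, 8086, 8515 and 6635 on day 20 (-1.18 ± 0.22, adjusted p = 0.00344). Of 18 antigen presentation genes H2-D1 and Psmb8 were lower (11.1%, beside 2.25% of all tested genes). The class II chain H2-Aa was higher (1.04 ± 0.30, adjusted p = 0.0483), a share of 5.56%, beside 3.05%. Calls ended for Bst2 without day 20 A or E or day 5 B, C, D or E (adjusted p = 0.0684 to 0.14), for Psmb8 without day 20 A, D or E or day 5 B, C or D (adjusted p = 0.0593 to 0.0897) and for H2-Aa without day 20 A, B, C, D or E or day 5 B, C, D or E (adjusted p = 0.0647 to 0.136), and without day 20 A or E or day 5 B or D the interferon list had 1 call each. The calls of Bst2 and H2-Aa ended with each gene's probe sets averaged (adjusted p = 0.0515 and 0.0641).

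Few markers of other leukocytes passed the test. Of 13 T and NK cell markers none passed by limma, and 1 had an unadjusted p under 0.05. Single members rose among markers of dendritic cells (Cd209a, 1.15, 1 of 11), B and plasma cells (Ms4a1, the CD20 antigen, 0.70, 1 of 11) and mast cells (Hdc, which makes histamine, 1.03, 1 of 9), each with a call that several single arrays ended (Cd209a without day 20 A, B, C or D or day 5 B, C, D or E (adjusted p = 0.0707 to 0.114), Ms4a1 without day 20 A, B, C or D or day 5 C, D or E (adjusted p = 0.0682 to 0.138), Hdc without day 20 A, B, D or E or day 5 B, C, D or E (adjusted p = 0.0522 to 0.155)). The calls of Cd209a and Hdc ended with each gene's probe sets averaged (adjusted p = 0.0549 and 0.0742). The shares higher were 9.09% of the dendritic, 9.09% of the B and plasma and 11.1% of the mast cell markers, beside 3.05% of all tested genes. Of 18 complement genes 3 were lower (16.7%, beside 2.25% of all tested genes) and 1 higher (5.56%, beside 3.05%). Without day 5 B 1 was lower. The anaphylatoxin receptor genes C3ar1 and C5ar1, carried by myeloid cells, fell (-1.80 and -1.23), as did Cfb, the alternative pathway protease (-1.18). C1s1, a protease of the classical pathway, rose, with signals of 3709, 2144, 5173 and 3572 on day 5 and 8113, 11683, 11359, 10382 and 8446 on day 20 (1.48 ± 0.28, adjusted p = 0.00389). Its control mean, 9184 ± 1349 (SD, n = 5), lay within the day 20 signals. The C3ar1 call ended without day 5 B (adjusted p = 0.0545) and the C5ar1 call without day 5 B or C (adjusted p = 0.0536 to 0.0549).

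**Figure D3:**
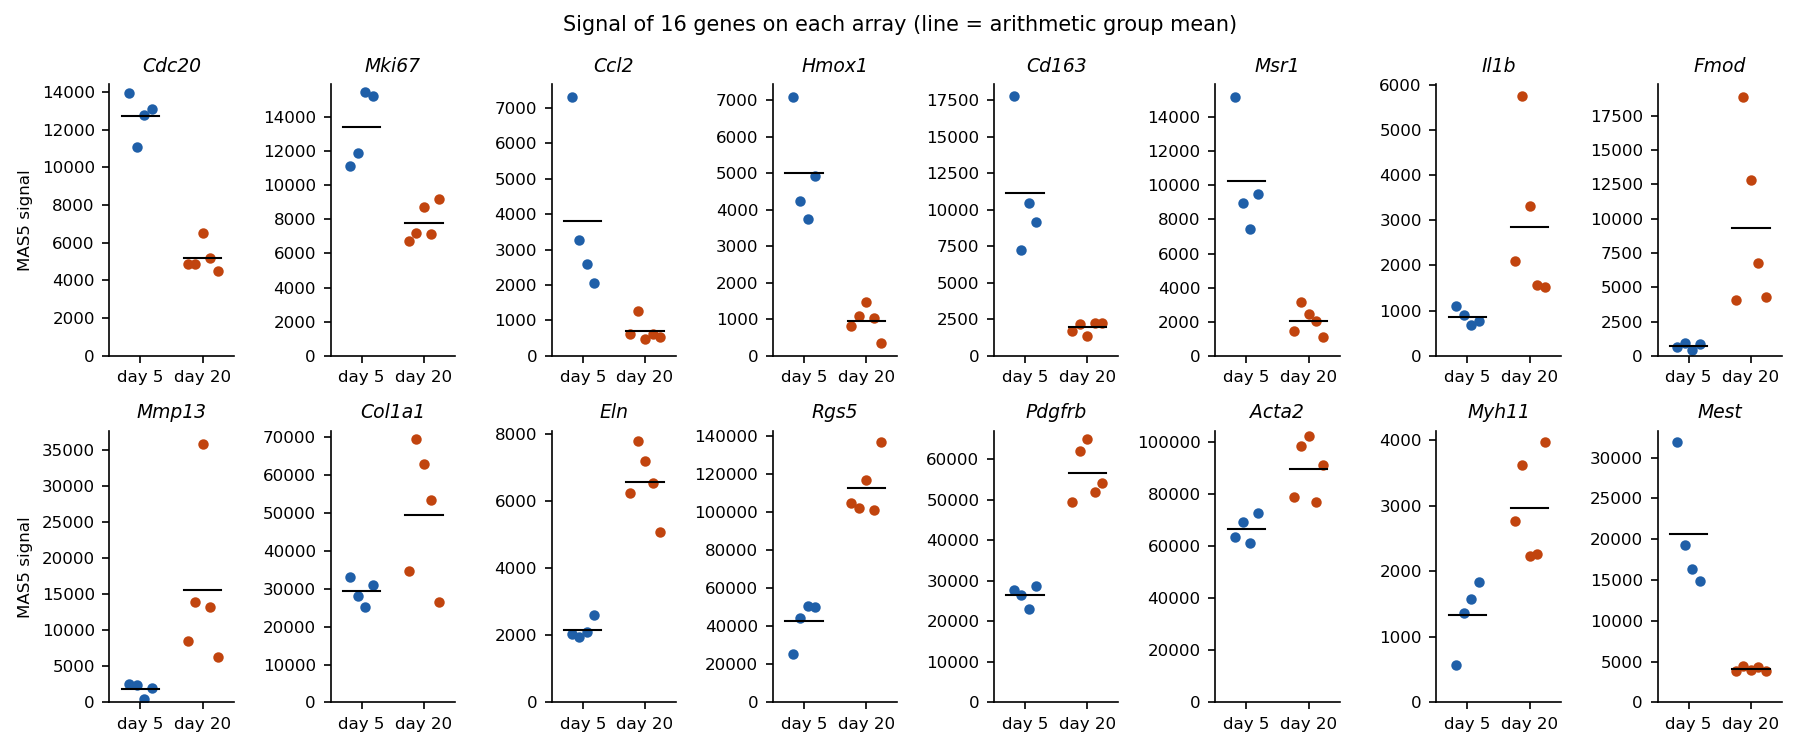
MAS5 signal of 16 genes on the 4 day 5 arrays (blue) and the 5 day 20 arrays (orange), on linear axes from 0, with 1 point an array and a line at the group mean. Cdc20, Ccl2, Hmox1, Cd163, Msr1 and Mest lie lower and Il1b, Fmod, Mmp13, Eln, Rgs5 and Pdgfrb higher on day 20. Col1a1 overlaps between the days, and Mki67, Col1a1, Acta2 and Myh11 did not pass the test.

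Genes of collagen-binding proteoglycans and elastic fibres rose in part. Of 25 tested small leucine-rich proteoglycan and elastic fibre genes 7 were higher (28%, beside 3.05% of all tested genes), none lower and 18 did not pass, with a median of 0.66 and 22 values above 0. Fmod, fibromodulin, which binds collagen fibrils and guides their assembly, was measured at 638, 970.5, 402 and 866 on day 5 and 4065, 18838, 12819, 6735 and 4282 on day 20. On the scale with a pseudocount of 100 this was the largest rise of all tested genes (3.33 ± 0.51, adjusted p = 0.000852), while with a pseudocount of 1 Ecrg4 and Gdf10 had larger rises (4.08 and 3.77, against 3.51 for Fmod). The signals lay apart between the days, with arrays B and C of day 20 above the other 3. All 6 of its probe sets named for it alone passed, with changes of 1.75 to 3.33. Lum, lumican, another regulator of fibril width, had signals of 6972, 8973, 7732 and 8443 on day 5 and 21699.8, 30165, 35219.9, 35303 and 15728 on day 20. Day 20 lay above day 5 on every array (1.71 ± 0.25, adjusted p = 0.000436), beside control and day 60 means (22765 ± 4849 and 27895 ± 8753, SD, n = 5 each). Eln, elastin, which gives vessel walls and skin their recoil, was measured at 2049, 1937, 2091 and 2601 on day 5 and 6235, 7799, 7187, 6534 and 5089.9 on day 20, with a gap of nearly 2-fold between the days (1.55 ± 0.19, adjusted p = 0.000121). Ecm2, a matrix protein related to the leucine-rich proteoglycans, had signals of 554, 956, 648 and 932 on day 5 and 2385, 2473, 1775, 3083 and 1922 on day 20 (1.48 ± 0.22, adjusted p = 0.000642). Dcn, decorin, rose by 0.81, Ltbp1, which holds latent TGF-beta in the matrix, by 0.75 and Fbln5, needed to assemble elastic fibres, by 0.99. Control means of Dcn (62791 ± 9360) and Ltbp1 (2407 ± 370, SD, n = 5 each) lay above their day 20 signals. Those of Fmod, Eln, Ecm2 and Fbln5 lay below theirs. Calls ended for Dcn without day 20 B, C or D or day 5 C, D or E (adjusted p = 0.051 to 0.0748), for Ltbp1 without day 20 A, B, D or E or day 5 B, C, D or E (adjusted p = 0.0535 to 0.141) and for Fbln5 without day 20 B or day 5 B or D (adjusted p = 0.0549 to 0.089). The calls of Dcn, Ltbp1 and Fbln5 ended with each gene's probe sets averaged (adjusted p = 0.139, 0.569 and 0.0657). Without day 20 B and without day 5 D 4 members each were called.

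Collagen chains rose in few members. Of 25 tested fibrillar and associated chains 2 were higher (8%, beside 3.05% of all tested genes), none lower and 23 did not pass, although 23 values were above 0 and the median was 0.51. The list's mean level was 11.24 to 11.63 in control, 12.11 to 12.47 on day 5 and 12.50 to 13.19 on day 20, so the days did not overlap. Col8a2, a chain of the network collagen VIII of vessel walls, was measured at 268, 255, 9.14 and 479 on day 5 and 1021, 2902, 2624, 1163 and 1012 on day 20 (2.47 ± 0.40, adjusted p = 0.00138). Its signal on day 5 D was close to the background. Col11a1, a chain that nucleates thin fibrils and is known from cartilage, had signals of 1774, 1324, 459 and 864 on day 5 and 3023, 9587, 6787, 4564 and 3268 on day 20, with day 20 B and C highest (2.20 ± 0.35, adjusted p = 0.000998). The main fibrillar chain gene Col1a1 was measured at 33146, 28039.5, 25088 and 30911 on day 5 and 34673, 69381, 62820.2, 53308 and 26417 on day 20. Arrays A and E of day 20 lay within or near the range of day 5 while B, C and D were above it (0.67 ± 0.31, adjusted p = 0.232). Col3a1, the chain of collagen III, had signals of 76269, 88987, 82662 and 109438 on day 5 and 106204, 133545, 148231, 119788 and 105309 on day 20 (0.46 ± 0.19, adjusted p = 0.184). Of 28 genes that modify and crosslink collagen 1 was lower, a share (3.57%) near the 2.25% of all tested genes, none higher and 27 did not pass, with a median of -0.16. It was P4hb (-0.55 ± 0.13, adjusted p = 0.0145), the disulphide isomerase subunit of prolyl hydroxylase. The P4hb call ended without day 5 E (adjusted p = 0.0515). Lox, the main crosslinking enzyme, had a change of -0.29 ± 0.29, adjusted p = 0.63. The fit of the 9 arrays alone called 4 collagen chains.

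Proteases that cut collagen and proteoglycans rose in part. Of 33 tested proteases and inhibitors 7 were higher (21.2%, beside 3.05% of all tested genes), none lower and 26 did not pass, with a median of 0.42. Mmp13, interstitial collagenase, was measured at 2488, 2464, 437 and 1949.6 on day 5 and 8471, 13853, 35795, 13168 and 6305 on day 20. Day 5 D was far below the other day 5 arrays and day 20 C far above the other day 20 arrays, and the days did not overlap (2.98 ± 0.61, adjusted p = 0.00648). The control mean was 102 ± 70.4 and that of day 60 618 ± 722 (SD, n = 5 each). Ctsk, cathepsin K, had signals of 2473, 2507, 1339 and 2072 on day 5 and 3758, 8994, 8714, 7059.9 and 5137 on day 20, again with B and C highest on day 20. Adamts15 (1.14 ± 0.18, adjusted p = 0.000852) and Adamts12 (1.19), secreted metalloproteases that act on proteoglycans and other matrix proteins, and Mmp11 (1.51), a metalloprotease of stroma, were higher, as was the inhibitor Timp2 (0.86). The control mean of Timp2 (29576 ± 8240, SD, n = 5) lay above its day 20 signals. Those of Ctsk, Adamts15, Adamts12 and Mmp11 lay below theirs. The Timp2 call ended without day 20 A, B, C, D or E or day 5 B, C, D or E (adjusted p = 0.0614 to 0.123). The calls of Adamts12 and Timp2 ended with each gene's probe sets averaged (adjusted p = 0.15 and 0.491). With the array of conflicting labels as a control 4 members were called, not Mmp13 (adjusted p = 0.0572). AP-1 letters (TGACTCA), known from promoters of metalloproteases, were in 4 of 26 windows of this list, 15.4%, against 5.17% of all genes, and in 1 of 6 called. They were in 1 of 23 proteoglycan and elastic fibre, 1 of 22 collagen and 3 of 21 matricellular windows, and in none of the called genes of those lists.

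Matricellular genes, whose products sit in the matrix and signal to cells, went both ways. Of 29 tested 4 were higher (13.8%, beside 3.05% of all tested genes), 2 lower (6.90%, beside 2.25%) and 23 did not pass. Ccn3 (also called Nov), a secreted protein of vessel walls, was measured at 8068, 5278, 3192 and 3809 on day 5 and 12999.5, 33162, 31868, 19399 and 14199 on day 20, a rise on every array (2.09 ± 0.40, adjusted p = 0.00439). Smoc2, Matn2 and Cilp, secreted matrix proteins, were higher by 1.18, 0.93 and 0.92. The mean of Smoc2 was 2936 ± 462 in control and 2216 ± 710 on day 20 (SD, n = 5 each). Control means of Ccn3 and Cilp lay below their day 20 signals, and that of Matn2 lay within them. Tnc, tenascin C, a protein of provisional and wound matrix, had signals of 20357, 20052, 18251 and 25035 on day 5 and 4113, 11348, 13536, 6022 and 3406 on day 20. It fell on every array, least on B and C (-1.63 ± 0.32, adjusted p = 0.00587). Cthrc1, made by activated fibroblasts, was measured at 4283, 4713, 2511 and 3319 on day 5 and 1005, 2401, 1859.5, 1659.9 and 1251 on day 20 (-1.15 ± 0.25, adjusted p = 0.00914). In basement membrane 1 of 25 genes was higher, a share (4%) near that of all genes, Frem1 (0.91), and 24 did not pass. The median was 0.22. Calls ended for Matn2 without day 20 A or D or day 5 D or E (adjusted p = 0.0545 to 0.0748), for Cilp without day 5 B (adjusted p = 0.0653) and for Frem1 without day 20 A, B, C, D or E or day 5 B, C or D (adjusted p = 0.0533 to 0.135). The call of Smoc2 ended with the gene's probe sets averaged (adjusted p = 0.123).

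Genes of resting fibroblasts rose in part. Of 22 tested markers 7 were higher, 31.8% beside 3.05% of all tested genes, none lower and 15 did not pass, with a median of 0.66. The number higher was 4 without day 20 D, 3 without day 5 C and 4 with probe sets averaged. It was 2 with the array of conflicting labels as a control and 11 in the fit of the 9 arrays alone. Dpt, dermatopontin, which binds decorin, was measured at 10362, 10724, 13426 and 13985 on day 5 and 25676, 38579, 32914, 41280.5 and 19332 on day 20 (1.33 ± 0.32, adjusted p = 0.0186). Gsn, gelsolin, rose from a narrow range to another (39174, 33611, 34252 and 39373 on day 5 and 65714, 63784, 61952, 65155 and 65300.0 on day 20, 0.82 ± 0.13, adjusted p = 0.00109). Ebf2, a transcription factor, rose by 1.02 and the ferritin receptor gene Scara5 by 1.53, and Lum and Dcn are members too. Control means of Dpt (43398 ± 8886), Gsn (122079 ± 21218) and Scara5 (16028 ± 2814, SD, n = 5 each) lay above their day 20 signals. That of Ebf2 lay below. Calls ended for Dpt without day 20 D or day 5 B or C (adjusted p = 0.0533 to 0.0591) and for Scara5 without day 5 C (adjusted p = 0.0703). The calls of Gsn, Ebf2 and Scara5 ended with each gene's probe sets averaged (adjusted p = 0.0794, 0.126 and 0.0953). The list's mean level rose from 11.89 to 12.12 on day 5 to 12.37 to 12.83 on day 20, and lay at 12.71 to 13.26 in control. Of 20 genes of activated fibroblasts and skeletal matrix 4 were higher (20%, beside 3.05% of all tested genes) and 1 lower (5%, beside 2.25%). Those higher were Itgbl1, Mmp13, Col11a1 and the tendon gene Tnmd (1.26), and Cthrc1 was lower. Itgbl1, a secreted protein related to integrin beta chains, had signals of 2298, 1646, 1379 and 2031 on day 5 and 6964, 24180.4, 21244, 15667 and 7069.7 on day 20 (2.80 ± 0.46, adjusted p = 0.00141).

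Pericyte genes rose in part, Rgs5 and Pdgfrb among them. Of 33 tested pericyte markers and genes of PDGF signalling 11 were higher (33.3%, beside 3.05% of all tested genes), none lower and 22 did not pass, with a median of 0.46 and 26 values above 0. The list's mean level was 10.76 to 11.07 in control, 11.45 to 11.83 on day 5 and 12.11 to 12.27 on day 20. Rgs5, a regulator of G protein signalling and a defining marker of pericytes, was measured at 25292, 44443, 50818 and 50131 on day 5 and 105176, 102583, 117172, 101048 and 137287 on day 20. Every day 20 array was about 2-fold or more above the highest day 5 array (1.44 ± 0.28, adjusted p = 0.00481), and its 4 probe sets all passed, with rises of 1.44 to 2.52. Gucy1a1, a subunit of the receptor for nitric oxide, had signals of 1371, 2887, 2084 and 2890.1 on day 5 and 6566, 7003, 6599, 8639.8 and 8041 on day 20 (1.68 ± 0.21, adjusted p = 0.000121), and its partner subunit gene Gucy1b1 rose by 1.03. Pdgfrb, the receptor that draws pericytes to vessels, was measured at 27678, 26548, 22958 and 28766 on day 5 and 49616, 62148, 64935, 51892 and 54104 on day 20. Its ranges lay far apart (1.09 ± 0.21, adjusted p = 0.00454). Notch3, the Notch receptor of mural cells, had signals of 8185, 10679, 10124 and 13077 on day 5 and 21411, 20023, 19458, 19432 and 22854 on day 20 (0.98 ± 0.16, adjusted p = 0.00106). Ebf1, a transcription factor of pericytes, was measured at 3375, 4174, 3839 and 4264 on day 5 and 8119.8, 8220.0, 7006, 10522 and 8413 on day 20 (1.09 ± 0.17, adjusted p = 0.000988). Angpt1, the ligand by which mural cells quieten endothelium, had signals of 981, 980.0, 952 and 1206 on day 5 and 1721, 1862, 1704, 1633 and 1815 on day 20 (0.71 ± 0.14, adjusted p = 0.00646). Its control mean, 2174 ± 414 (SD, n = 5), lay above every day 20 signal, whereas those of Gucy1a1, Rgs5, Pdgfrb, Notch3 and Ebf1 lay below theirs. The channel subunit Abcc9 (0.87), the amine oxidase Aoc3 (1.25) and the ligand Pdgfa (0.74) were higher too. Cd248, endosialin, a marker of activated mural cells and fibroblasts, had the lowest value of the list and did not pass (-0.58 ± 0.32, adjusted p = 0.34), but was lower in the fit of the 9 arrays alone (adjusted p = 0.0417). Calls ended for Gucy1b1 without day 5 B (adjusted p = 0.0554), for Abcc9 without day 20 D or E or day 5 B, C, D or E (adjusted p = 0.0521 to 0.0954), for Aoc3 without day 5 B or D (adjusted p = 0.0504 to 0.0553) and for Pdgfa without day 5 D (adjusted p = 0.0504), and 7 members were called without day 5 B and without day 5 D.

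Some genes of smooth muscle contraction rose too. Of 41 tested 11 were higher (26.8%, beside 3.05% of all tested genes), none lower and 30 did not pass, with a median of 0.51 and 35 values above 0. The list's mean level on the control arrays was 11.26 to 11.46. Mylk, the kinase that starts smooth muscle contraction, was measured at 13897, 13246, 13329 and 11759 on day 5 and 30839, 33689.9, 27128, 30579 and 22383 on day 20 (1.13 ± 0.22, adjusted p = 0.00536). Ramp1, a subunit of the receptor for the vasodilator CGRP, had signals of 961, 1343, 1298 and 1132 on day 5 and 2935, 3178, 2594, 3208 and 3486 on day 20 (1.31 ± 0.25, adjusted p = 0.00428). Itga8, an integrin of smooth muscle, was measured at 1405, 2532, 1625 and 2368 on day 5 and 4169, 8618, 4858, 6159 and 5778 on day 20 (1.53 ± 0.32, adjusted p = 0.0074). Susd5 had signals of 1427, 1219, 1494 and 1515 on day 5 and 4417, 6735, 5511, 5281 and 5033 on day 20 (1.85 ± 0.36, adjusted p = 0.00498). In each of these the days did not overlap. Pln, phospholamban, which restrains the calcium pump and is also expressed in slow skeletal muscle, was measured at 254, 431, 472 and 249 on day 5 and 2693, 856, 708, 2846 and 1072 on day 20. Arrays A and D of day 20 were highest (1.76 ± 0.39, adjusted p = 0.0107). The actin nucleator Lmod1 (0.99), Mrvi1, a substrate of cGMP-dependent kinase (0.93), and the odorant receptor gene Olfr78 (1.67) rose as well. Control means of Ramp1 (3553 ± 947) and Lmod1 (1116 ± 341, SD, n = 5 each) lay above their day 20 signals. Those of Mylk, Itga8 and Susd5 lay below theirs. Acta2, smooth muscle actin, was measured at 63443, 69204, 60953 and 72536 on day 5 and 78749, 98277, 102007, 76688 and 91105 on day 20. All 5 day 20 values lay above all 4 of day 5, with a small change that did not pass (0.42 ± 0.29, adjusted p = 0.458). Myh11, the smooth muscle myosin heavy chain, had signals of 573, 1371, 1579.6 and 1838 on day 5 and 2772, 3626, 2241, 2261 and 3974 on day 20. The days did not overlap here either, with day 5 B lowest, and the gene did not pass (1.16 ± 0.42, adjusted p = 0.117). Both passed in the fit of the 9 arrays alone (adjusted p = 0.0388 for Acta2 and 0.0368 for Myh11).

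Day 5 B stood apart in this list, with a mean level of 11.22 against 11.61 to 11.74 on the other day 5 arrays and 12.08 to 12.25 on day 20. The same array had the lowest mean level of 28 tested skeletal muscle markers, 12.33, against 13.46 to 14.25 on the others of day 5 and 13.10 to 14.55 on day 20. No skeletal muscle marker passed, and the part of muscle content in the contractile genes was not tested. Without day 5 B 6 contractile members were called, without day 5 C 6, and without day 20 A, D or E 7 each. Calls ended for Lmod1 without day 5 B or C (adjusted p = 0.0586 to 0.064), for Mrvi1 without day 20 E or day 5 B or C (adjusted p = 0.0508 to 0.0721) and for Olfr78 without day 20 A, B, C, D or E or day 5 B, C, D or E (adjusted p = 0.0562 to 0.116). The calls of Itga8 and Olfr78 ended with each gene's probe sets averaged (adjusted p = 0.0527 and 0.051). The CArG box, the element of smooth muscle promoters bound by serum response factor, was found in 3 of 35 windows of the contractile list, 8.57%, against 1.57% of all genes, and in none of the windows of 10 called members. In the pericyte list it was in 1 of 22 windows, and in none of 8 called. Of 35 tested TGF-beta and BMP genes 3 were higher (1 without day 5 D and 1 without day 5 E), 8.57% beside 3.05% of all tested genes, none lower and 32 did not pass. These were Tgfb2, a TGF-beta ligand (2005, 1653, 1499 and 1248 on day 5 and 3733, 3797, 3162, 3262 and 2761 on day 20, 1.03 ± 0.17, adjusted p = 0.00177), Bmp2 (0.96, whose call ended without day 5 D or E (adjusted p = 0.0555 to 0.0615)) and Ltbp1.

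**Figure D4:**
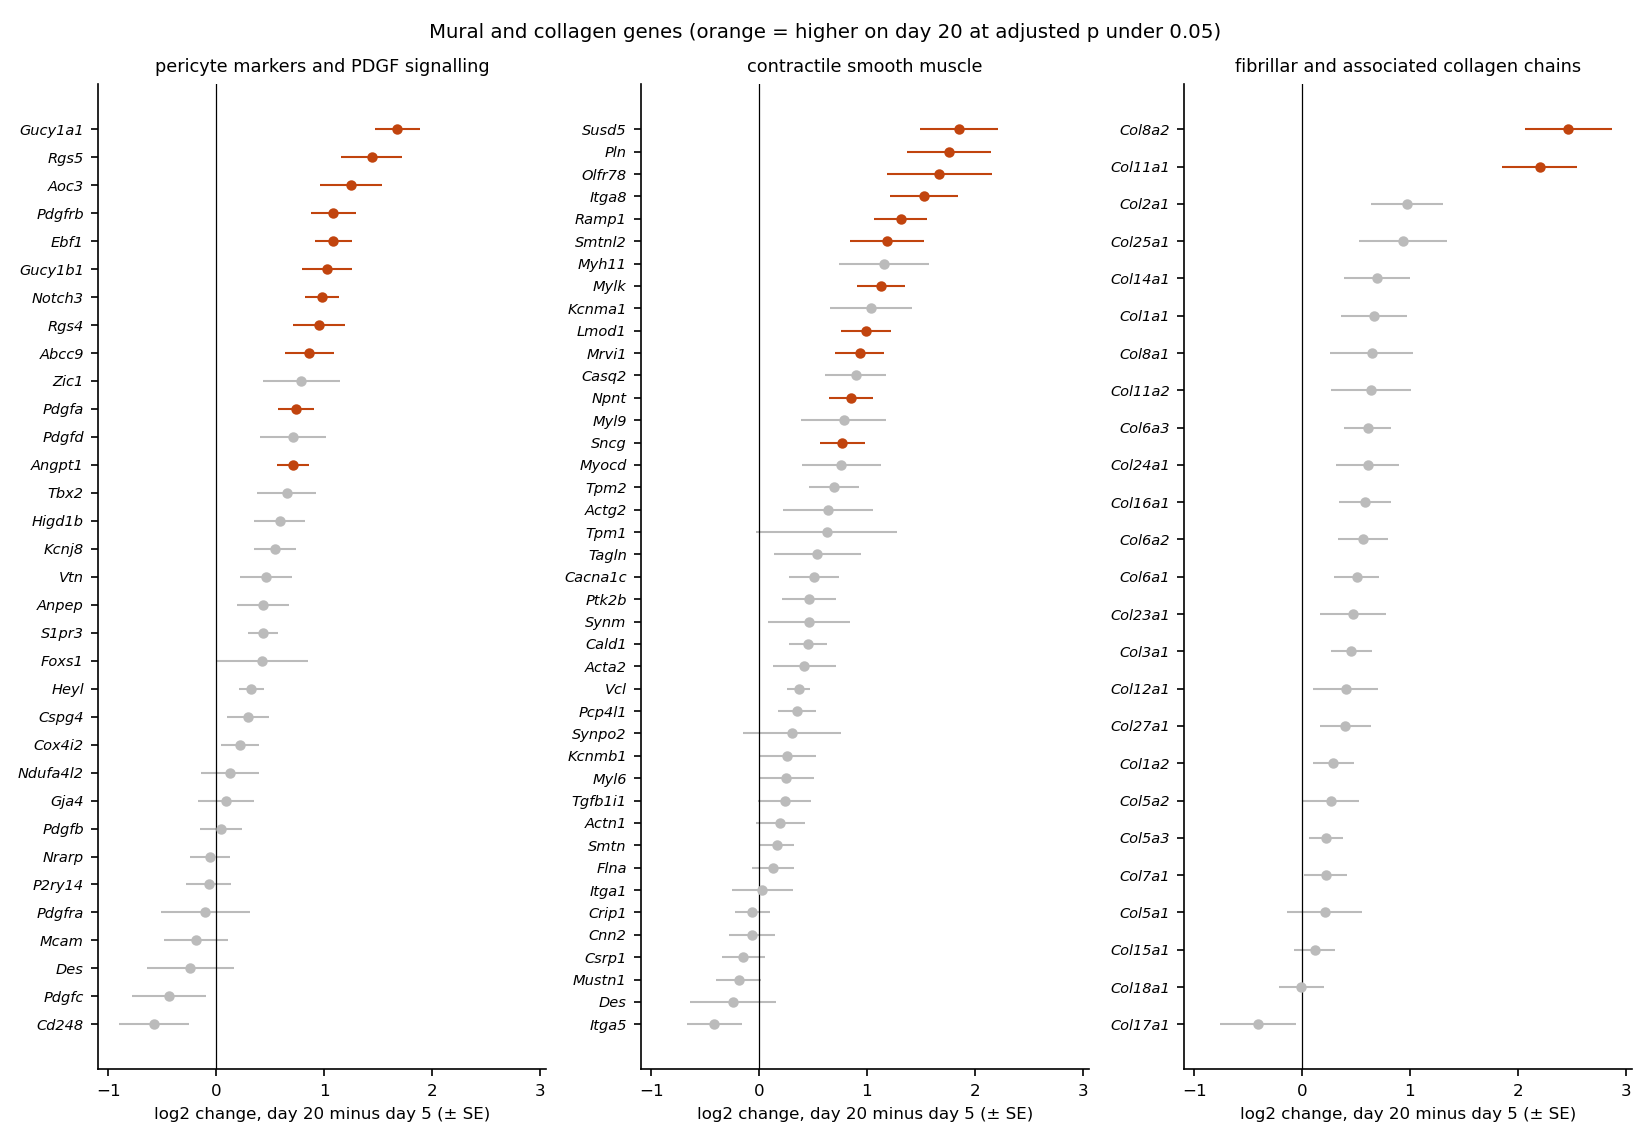
Log2 change (day 20 minus day 5) with its SE for the tested members of the pericyte, contractile smooth muscle and collagen chain lists, in order of size. Orange points passed at an adjusted p under 0.05 and grey points did not. Acta2, at 0.42, and Col1a1, at 0.67, are grey, and Gucy1a1 and Susd5 head the mural lists at 1.68 and 1.85.

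Most endothelial markers did not pass the test, and the shares called differed between the lists. Of 37 pan-endothelial markers 1 was higher (2.70%, beside 3.05% of all tested genes), 2 lower (5.41%, beside 2.25%) and 34 did not pass. The median was -0.09 and mean levels were 12.48 to 12.59 on day 5 and 12.24 to 12.79 on day 20, beside 10.74 to 11.11 in control. Vwf, a clotting factor that endothelial cells store, rose (1.45 ± 0.39, adjusted p = 0.0347), and the surface proteins Clec14a (-0.64) and Ecscr (-0.61) fell. Of 28 genes of sprouting tip cells 2 were lower (7.14%, beside 2.25% of all tested genes), Igfbp3 and Adm, and 26 did not pass. Igfbp3, which binds insulin-like growth factors, was measured at 39116, 40773, 31859 and 35671 on day 5 and 11458, 21289, 17105, 12007 and 14351 on day 20 (-1.30 ± 0.26, adjusted p = 0.00646), and Adm, adrenomedullin, fell by 1.05. Among 21 arterial and Notch genes Hey2, a Notch target of arteries and mural cells, had signals of 543, 817, 434 and 690.1 on day 5 and 2084, 2061, 1425, 2228 and 2214 on day 20, more than 2-fold apart on all but 1 array (1.56 ± 0.22, adjusted p = 0.000328), and Fbln5 was the other that rose. Of 14 venous genes Selp, P-selectin, rose, with signals of 1421, 1710.4, 1558 and 1595 on day 5 and 4592, 5092, 3469, 5119 and 1802 on day 20 and day 20 E only just above day 5 (1.21 ± 0.28, adjusted p = 0.0155), as did Vwf. Of 15 lymphatic genes 3 were higher, Reln (1.39 ± 0.26, adjusted p = 0.00405), Itga9 (1.81 ± 0.32, adjusted p = 0.00238) and Mmrn1 (1.61), and Lyve1 was lower. Control means of Vwf (1235 ± 327), Selp (1921 ± 432) and Reln (2731 ± 495, SD, n = 5 each) lay within their day 20 signals. Those of Hey2, Itga9 and Mmrn1 lay below theirs. Of 15 VEGF and angiopoietin genes Angpt1 alone passed. The share higher was 9.52% of the arterial and Notch, 14.3% of the venous, 20% of the lymphatic and 6.67% of the VEGF and angiopoietin genes. Of all tested genes 3.05% were higher. The share lower was 6.67% of the lymphatic genes, beside 2.25% of all. Calls ended for Vwf without day 20 A, D or E or day 5 B or C (adjusted p = 0.0593 to 0.114), for Clec14a without day 20 A, B, C or D or day 5 B, C or D (adjusted p = 0.0501 to 0.0985), for Ecscr without day 20 A, B, C or D or day 5 B or C (adjusted p = 0.0539 to 0.131), for Adm without day 20 A, C, D or E or day 5 B, D or E (adjusted p = 0.0605 to 0.132) and for Mmrn1 without day 20 B, C or D or day 5 B, C, D or E (adjusted p = 0.0554 to 0.108). The calls of Clec14a and Mmrn1 ended with each gene's probe sets averaged (adjusted p = 0.302 and 0.0876).

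Other cells of the flank were read on all 9 arrays, at uneven levels. No tested member passed among 25 adipocyte, 28 skeletal muscle, 8 muscle regeneration, 24 mitochondrial respiration, 22 epidermis, 23 hair follicle and 22 mammary epithelium genes by limma. At an unadjusted p under 0.05 these lists had 8, 2, 1, 0, 4, 4 and 1 members. Mean levels of the epidermis list were 10.66 to 11.17 on day 5 and ran from 9.31 (E) and 9.63 (B) to 12.12 (C) on day 20, and those of the hair follicle list from 9.91 (E) and 10.16 (B) to 12.77 (C). Dct, a pigment enzyme, was the only melanocyte gene of 11 to pass (-1.24 ± 0.34, adjusted p = 0.0366), and S100b the only Schwann cell gene of 12 (0.99 ± 0.25, adjusted p = 0.0231). These were 9.09% of the melanocyte genes lower, beside 2.25% of all tested genes, and 8.33% of the Schwann cell genes higher, beside 3.05%. The control mean of S100b, 1862 ± 539 (SD, n = 5), lay above every day 20 signal. Day 20 arrays B and C had the highest levels of both the collagen list (13.19 and 13.15) and the core macrophage list (12.49 and 12.24) of that day, and A and E the lowest (12.60 and 12.50, and 11.45 and 11.30). In the pericyte and contractile lists the 5 day 20 arrays lay within 0.15 and 0.17 of each other. Calls ended for Dct without day 20 B, D or E or day 5 B, C, D or E (adjusted p = 0.0568 to 0.09) and for S100b without day 20 A or D or day 5 B, C or D (adjusted p = 0.0533 to 0.0871).

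**Figure D5:**
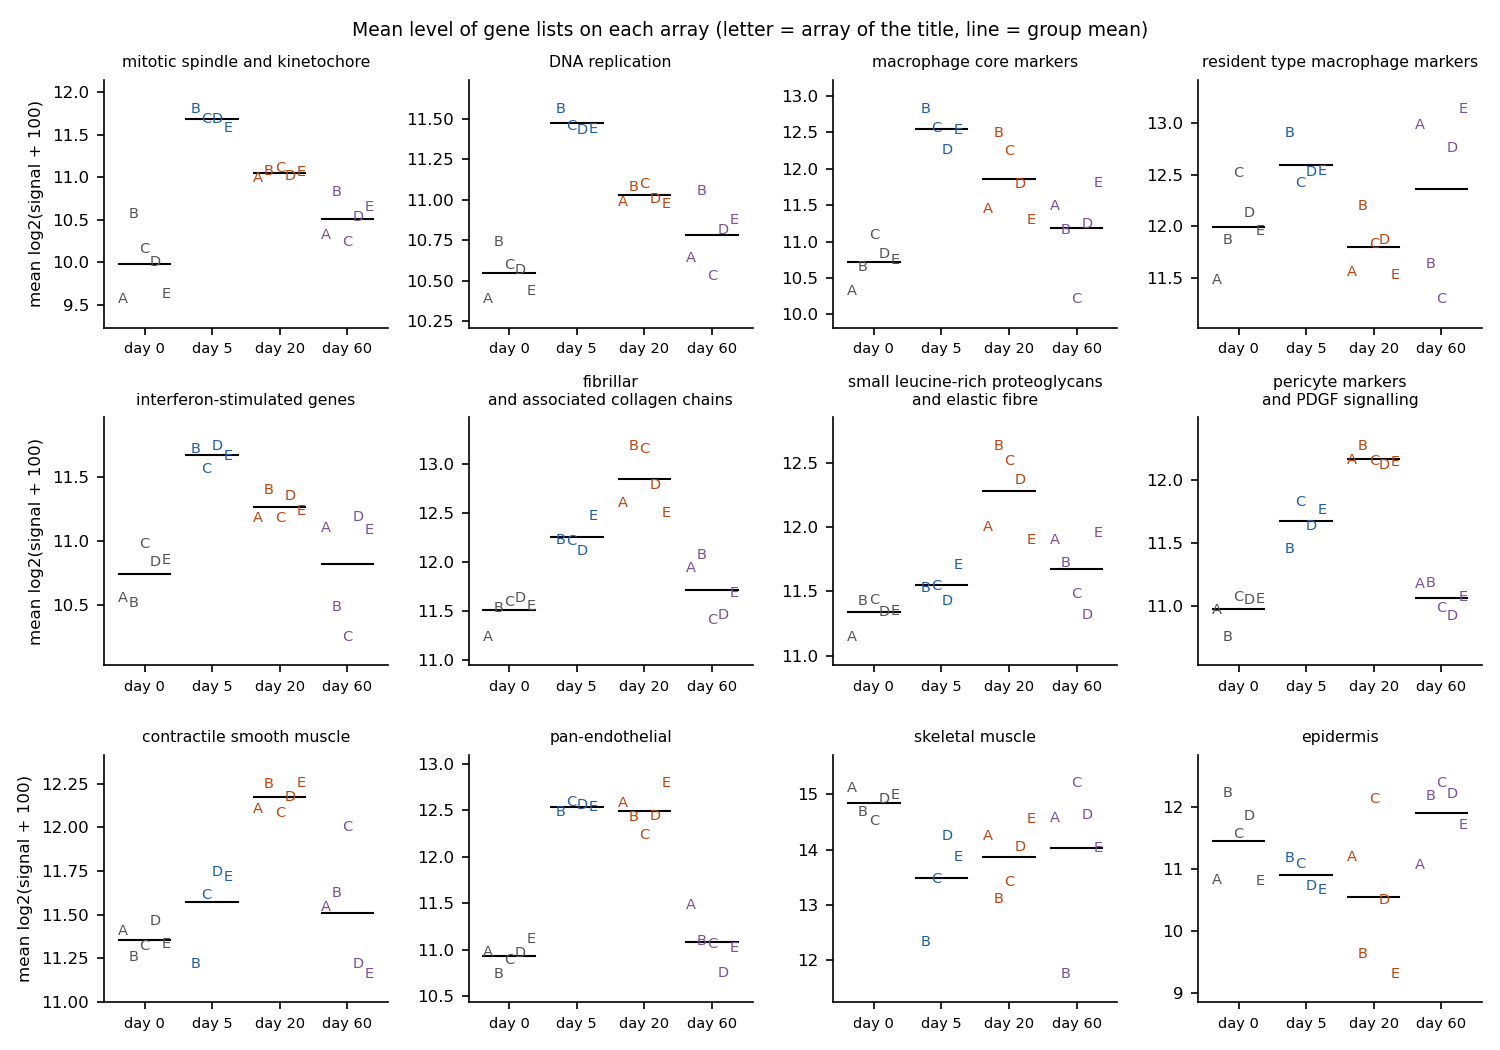
Mean log2(signal + 100) of the tested members of 12 gene lists on each of the 19 assigned arrays, by day, with the array's letter as its mark and a line at the group mean. Axes differ between panels and do not start at 0. The mitotic, replication, resident type macrophage, interferon, collagen, proteoglycan, pericyte and contractile panels have no overlap between day 5 and day 20. The pan-endothelial panel overlaps between them, and in the epidermis panel day 20 ranges from 9.31 to 12.12.

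Among the 12 largest rises and 12 largest falls several genes lay outside these lists. Ecrg4, a secreted peptide precursor, was measured at 49.8, 136, 45.4 and 107 on day 5 and 642, 6398, 4234, 901 and 232 on day 20. All 5 day 20 arrays lay above day 5, over a wide range of their own (3.03 ± 0.68, adjusted p = 0.0118). Gdf10, a BMP-like ligand also called BMP3b, had signals of 22.6, 132, 139 and 189 on day 5 and 923, 1824, 899, 1403 and 1790.3 on day 20 (2.74 ± 0.30, adjusted p = 4.25e-05), beside means in control (1059.9 ± 332) and day 60 (1513 ± 549, SD, n = 5 each). Scg2, a granin that is cut into the peptide secretoneurin, was measured at 387, 279, 228 and 257 on day 5 and 1577, 2874, 1826, 2271 and 2525 on day 20 (2.56 ± 0.37, adjusted p = 0.000436). C1qtnf3, a secreted relative of adiponectin, rose by 2.56, Igfbp2, which binds insulin-like growth factors, by 2.42, the immunoglobulin light chain segment Igkv8-30 by 2.30 and Ppp1r3c, which targets a phosphatase to glycogen, by 2.22. Igkv8-30 was dim on day 5 (149, 118, 5.42 and 90.6), with day 5 D close to the background. Its means in control (205) and on day 5 (90.7) lay below the minimum mean signal set for testing. Those of day 20 (867) and day 60 (387) lay above it. Mest, an imprinted gene of growing mesenchyme, had signals of 31869.6, 19256, 16351 and 14876 on day 5 and 3866, 4522, 4022, 4384 and 3898 on day 20. The day 20 arrays were nearly equal and the smallest day 5 value was more than 3-fold above them (-2.22 ± 0.17, adjusted p = 6.14e-07), while control was at 1786 ± 186 and day 60 at 1871 ± 253. Ms4a4c (-2.34) and Ms4a6d (-2.24), 4-pass membrane proteins of myeloid cells, and Pgap6 (-2.09) fell too. Probe sets of the Ms4a family and of immunoglobulin segments may also read near-identical copies. The Ppp1r3c call ended without day 20 A or E or day 5 B or C (adjusted p = 0.0531 to 0.0775). The call of Pgap6 ended with the gene's probe sets averaged (adjusted p = 0.109).

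Genes of the secretory pathway and of protein synthesis fell in part. Of 27 ER chaperones and genes of secretory load 5 were lower (18.5%, beside 2.25% of all tested genes), none higher and 22 did not pass, with a median of -0.27. Calr, calreticulin, a calcium-binding chaperone, was measured at 26594, 34717, 36044 and 37302 on day 5 and 20561, 23166, 23318, 18643 and 19408 on day 20 (-0.67 ± 0.13, adjusted p = 0.00402). Pdia6 and Pdia4, disulphide isomerases, fell (-0.80 and -0.96), as did the secreted ER factor Manf (-0.81) and Sdf2l1 (-0.89). Of 13 ribosomal protein genes 3 were lower (23.1%, none without day 5 C, 5 in the fit of the 9 arrays alone), Rps19 (-0.65), Rps6 (-0.64) and Rpl8 (-0.55). Of 23 glycolysis and hypoxia genes Ndrg1 rose (0.73 ± 0.16, adjusted p = 0.0092) and Adm and Pgam1, a glycolytic enzyme (-0.66), fell. The shares were 4.35% higher, beside 3.05% of all tested genes, and 8.70% lower, beside 2.25%. Of 13 platelet and coagulation genes Ppbp, a platelet chemokine, and F5, clotting factor V, rose by 2.25 and 1.47, and F13a1 fell. In this list 15.4% were higher and 7.69% lower, beside the same 3.05% and 2.25%. Calls ended for Sdf2l1 without day 5 C (adjusted p = 0.0618), for Pdia4 without day 5 E (adjusted p = 0.0557), for Rps19 without day 5 B or C (adjusted p = 0.0531 to 0.0581), for Rps6 without day 5 C (adjusted p = 0.0633), for Rpl8 without day 20 D or day 5 C or D (adjusted p = 0.0504 to 0.0695), for Pgam1 without day 20 A, B, D or E or day 5 B, C, D or E (adjusted p = 0.0582 to 0.123), for Ppbp without day 5 D or E (adjusted p = 0.0524 to 0.0618) and for F5 without day 20 A or B or day 5 B, C, D or E (adjusted p = 0.0504 to 0.0604). The calls of Pdia6, Pdia4, Rps6 and Ndrg1 ended with each gene's probe sets averaged (adjusted p = 0.147, 0.943, 0.184 and 0.0908).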

How the data were processed

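The series holds 20 Affymetrix arrays (Mouse Genome 430 2.0) of RNA from mouse flank. The authors deposited 1 intensity per probe set and array, a MAS5 signal on a linear scale; per the labels it was made with GCOS 1.3 and a scaling factor of 1500. RNA handling before hybridisation is not given in the sources used here. Groups were taken from each sample's source name and title, and the array whose labels conflict entered alternatives only.

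Of 45101 probe sets 64 were controls, 34958 had 1 gene symbol, 932 several and 9211 none. Symbols were updated through the RefSeq gene table, which matched 34754. Each of 18194 genes was read from 1 probe set, that of highest mean on the 19 assigned arrays, and 13595 whose mean was 300 or more were tested. Several probe sets were tested for 5765 genes, of which 1, not named here, was called in both directions.

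Tests used limma 3.58.1 in R 4.3.3 on log2(signal + 100), with no further scaling: 1 fit of the means of control, day 5, day 20 and day 60 (lmFit, eBayes with trend), the contrast day 20 minus day 5, two-sided, with Benjamini-Hochberg adjustment. The scripts were tested on simulated data. A set of 45 lists with 1151 genes was used, of which 88 genes had no probe set of their own, and lists are described by counts, medians and mean levels without a test. Named genes are Vegfa with its receptors, the 12 largest rises and 12 largest falls among called genes whose arrays do not overlap (clones and gene models passed over), up to 4 called members in each direction of 16 central lists and up to 2 of the others, and 14 preset genes. Further members were named after their values were seen. The comparison and the lists were chosen with earlier results of these data known. Promoter windows came from RefSeq (GRCm38.p6). Alternatives changed the pseudocount, the minimum signal, the choice of probe set, the scaling, the arrays in the fit, array weights, the trend, a covariate for RNA integrity, the use of letters as a block and the array of conflicting labels, and left out each day 5 and day 20 array in turn.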

Additional observations from a re-analysis of the deposited data

Results flagged for a closer look

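In 300 pairs of a named gene and a group of 4 or 5 arrays, Dixon's test at its 95% level set 16 arrays apart from the rest of their group, where chance alone sets apart about 1 in 20. Day 5 B was the lowest array of its day for Flt1 (6580), Mcm3 (2650), Dct (5713) and Adamts15 (567), and the highest for Ccl7 (6060), Ccl6 (69291) and Pgam1 (11412). Day 5 D was the lowest for Mmp13 (437) and Fcgr1 (2624), and day 5 E the highest for Angpt1 (1206). On day 20, array B was the highest for Ccl2 (1255), and the lowest were array A for Oas1a (1540), C for Hdc (708) and Hey2 (1425), and E for Matn2 (5720) and Ccl11 (1613).

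The array titled day 5 A, which entered alternatives only because its source name is that of the day 0 control, had a Vegfa signal of 11111.1, beside 66.5 to 467 on the control arrays and 3927 to 9410.0 on day 5 B to E.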

How the results depend on the processing

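Of the 137 named genes that passed, 79 did so without each day 5 or day 20 array in turn, and none changed sign under any alternative. Calls ended for 60 with the array of conflicting labels as a control, 28 with probe sets averaged, 22 with letters as a replicate block, 13 with no minimum signal, 9 with a pseudocount of 1 and at most 6 under each of the others. The fit of the 9 arrays alone ended 4, those of Vwf, Adm, Bst2 and Ms4a1 (adjusted p = 0.0543, 0.0658, 0.0524 and 0.0574 by limma). Scaling to the 75th percentile or by quantiles left the median change of all genes at 0.02 and 0.01. The counts of the next paragraph moved by over 1.5 times from the values in the report, and the cause was not tested.

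With array weights 934 genes were higher, 819 lower and 138 lower by at least 2-fold; members called were 33 mitotic, 15 core and 12 resident type macrophage, 10 interferon, 5 collagen, 5 collagen processing, 11 proteoglycan and elastic fibre and 3 basement membrane genes. With only the 9 arrays 493 genes were lower, with 40, 9, 14, 14, 4, 11 and 3 members in these lists other than collagen processing. With every probe set 484 were lower, and with probe sets averaged 269 were higher, 98 of them at least 2-fold. A pseudocount of 500 left 92 genes at least 2-fold higher, with 28 mitotic, 6 interferon and 2 basement membrane genes. The array of conflicting labels as a control left 225 genes higher, 125 lower and 45 lower by at least 2-fold, with 1 mitotic, 2 replication, 2 core, 4 resident type, 1 cytokine, 0 collagen processing, 4 protease, 0 basement membrane and 7 contractile genes; as a day 5 array it gave 27 mitotic, 8 core and 4 basement membrane genes. Interferon calls were 5 after 75th percentile scaling, 7 after quantile normalization and 1 with the replicate block. Collagen calls were 1 at a minimum of 1000. Resting fibroblast calls were 11 with array weights, with the 9 arrays and with the array of conflicting labels on day 5, 4 with probe sets averaged and 2 with that array as a control. Ribosomal calls were 6, 5 and 6 with array weights, the 9 arrays and quantile normalization, and ER chaperone calls 3 with probe sets averaged. Basement membrane calls were 2 after 75th percentile scaling and 0 with no minimum or a pseudocount of 1.

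Leaving out 1 array gave 239 to 360 higher and 179 to 307 lower genes, and 8 to 13 mitotic, 4 to 10 replication, 3 to 7 core, 3 to 7 resident type, 2 to 5 lysosomal, 2 to 6 cytokine, 1 to 4 interferon, 0 to 1 collagen processing, 4 to 7 proteoglycan and elastic fibre, 0 to 1 basement membrane, 7 to 11 pericyte and 6 to 9 contractile calls. In the other lists it gave 3 to 9 resting fibroblast, 1 to 3 TGF-beta and BMP, 0 to 4 ribosomal, 1 to 3 complement, 1 to 2 antigen presentation, 1 to 3 tip cell, 1 to 2 arterial, 1 to 2 venous, 0 to 2 pan-endothelial and 0 to 2 platelet calls in the direction of most members called, 0 to 1 lower glycolysis genes, and 0 to 1 calls each of dendritic, B and plasma, mast, melanocyte and Schwann cell genes. The median change of neutrophil markers ran from -0.224 to 0.000482 with 1 array left out (above 0 without day 20 E) and that of mast cell markers from -0.225 to 0.0197 (above 0 without day 20 A), with 0.0280 under the replicate block. That of glycolysis genes ran from -0.000398 (without day 5 B) to 0.109, with -0.00667 with probe sets averaged and -0.0276 with the array of conflicting labels on day 5. The change of Pgf ran from -0.0357 to 0.351, below 0 without day 20 B and without day 5 B (-0.00542).

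Letters pair no arrays in the labels. Deviations of same-letter arrays of day 5 and day 20 correlated at 0.183, 0.203, 0.004 and 0.232 for B to E, and C and D of day 5 correlated best with another letter; with letters as a replicate block 339 genes were higher and 216 lower. Signals near background, such as Col8a2 and Igkv8-30 on day 5 D, limit the precision of low genes.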
